A study of Mus musculus with 18 samples.

Results

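The genes described here are 10 markers of the habenula and the thalamus, followed in RNA-seq libraries of the BNST and the prelimbic mPFC of mice in pain. They are Pou4f1, Gpr151, Tcf7l2, Lef1, Gbx2, Shox2, Slc17a6, Ntng1, Prkcd and Calb2. They were chosen by symbol, and all 10 were found among the 55401 gene identifiers of the count table. Each was measured in all 18 libraries, which cover 2 regions and 3 treatments with 3 libraries per group.

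All mice were male wild-type C57BL/6 mice of 6 to 8 weeks. Formalin mice received 10 μL of 1% formalin in the hind paw and were killed 24 h later, as a model of acute pain. CFA mice received 10 μL of 50% complete Freund's adjuvant and were killed 72 h later, as a model of persistent pain. Control mice received no injection according to the methods, although the figure legends call them sham-treated. The agent and the time of collection differed together between the formalin and CFA mice, so they cannot be told apart. Both regions were dissected as tissue blocks on a brain matrix, so each library holds the RNA of every cell in the block. In such bulk samples, more cells of a type and more RNA per cell cannot be told apart.

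The habenula is a small epithalamic nucleus that sits on the dorsal thalamus and links the forebrain with midbrain dopamine and serotonin neurons. It is known for its part in aversion, and its medial division holds cholinergic neurons rich in nicotinic receptors. The thalamus relays sensory signals, pain among them, to the cortex through glutamatergic neurons. Both arise from the embryonic diencephalon, whereas the BNST arises from the telencephalon and is made mostly of GABAergic neurons. The anterior thalamus lies just behind the BNST in the mouse brain.

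The genes fall into 5 groups by what their proteins do. Pou4f1 encodes Brn3a, the POU-homeodomain factor of habenular neurons, and Gpr151 encodes an orphan G protein-coupled receptor of habenular axons. Tcf7l2 and Lef1 encode the TCF/LEF factors that act with β-catenin downstream of Wnt. Gbx2 and Shox2 encode homeodomain factors of thalamic neurons. Slc17a6 encodes VGLUT2, the vesicular glutamate transporter of subcortical neurons, and Ntng1 encodes netrin-G1, an adhesion protein of thalamocortical axons. Prkcd encodes protein kinase C delta and Calb2 encodes the calcium-binding protein calretinin. Several of these are not particular to the diencephalon: Prkcd also marks GABAergic neurons of the BNST, Calb2 cortical interneurons, Tcf7l2 newly formed oligodendrocytes and Lef1 brain endothelium.

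Because 2 of the 10 genes encode TCF/LEF factors and 1 a Brn3 factor, the promoters of the genes were searched for the short sequences these factors are known to favour. RefSeq start sites on GRCm38.p6 gave 14 promoters for 8 of the 10 genes, each reaching from 250 bases before the start to 50 after it, and Gpr151 and Calb2 had no entry. The TCF/LEF core CTTTGA, on either strand, was in 3 of these 14 promoters and in 16.0% of all 32851 promoters. The Brn3 core ATAATTAAT was in 1 of the 14 and in 0.274% of all promoters. That match overlaps a match to the homeodomain core TAATTA, which 5.29% of all promoters held. These 3 were among 10 motifs looked at. The longer TCF/LEF sequence CTTTGAT was in 0 of the 14 promoters and in 3.73% of all promoters. The POU octamer ATGCAAAT was in 0 of the 14 and in 1.74% of all promoters. The 4 promoters with a TCF/LEF or Brn3 match are shown over the 250 bases before the start, 5′ to 3′ along the gene, with the matches in capitals.
Lef1, chr3:131156044-131156293, plus strand: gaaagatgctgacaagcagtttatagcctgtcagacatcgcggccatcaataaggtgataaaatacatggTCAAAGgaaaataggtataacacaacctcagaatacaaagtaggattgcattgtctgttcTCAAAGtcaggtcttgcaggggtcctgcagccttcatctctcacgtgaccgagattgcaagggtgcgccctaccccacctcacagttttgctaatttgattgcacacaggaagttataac
Shox2, chr3:66981772-66982021, minus strand: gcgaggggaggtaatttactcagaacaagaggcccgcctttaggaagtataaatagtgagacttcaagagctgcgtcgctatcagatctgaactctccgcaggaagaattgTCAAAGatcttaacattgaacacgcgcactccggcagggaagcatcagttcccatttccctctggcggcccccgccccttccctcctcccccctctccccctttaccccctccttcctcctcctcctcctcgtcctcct
Prkcd, chr14:30626209-30626458, minus strand: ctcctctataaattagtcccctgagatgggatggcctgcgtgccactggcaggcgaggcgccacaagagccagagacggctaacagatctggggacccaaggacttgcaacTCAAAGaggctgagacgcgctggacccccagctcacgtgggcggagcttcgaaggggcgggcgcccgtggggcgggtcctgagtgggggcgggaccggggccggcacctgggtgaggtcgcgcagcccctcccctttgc
Slc17a6, chr7:51624387-51624636, plus strand: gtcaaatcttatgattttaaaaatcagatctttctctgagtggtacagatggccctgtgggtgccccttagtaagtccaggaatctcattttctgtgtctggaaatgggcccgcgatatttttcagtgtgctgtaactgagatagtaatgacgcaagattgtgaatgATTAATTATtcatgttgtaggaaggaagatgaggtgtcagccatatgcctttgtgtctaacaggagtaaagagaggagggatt
The sequence of Lef1 holds 2 copies of the TCF/LEF core, those of Shox2 and Prkcd 1 each, all read on the opposite strand as TCAAAG. The Lef1 and Slc17a6 sequences belong to downstream alternative starts, and the other start sites of these genes held none of the 3 motifs. A match of letters is a description and not a binding site.

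Levels are given in CPM, counts scaled to a common TMM-adjusted library size, and the 18 libraries held 14781315 to 23408503 counts. The labelled regions differed in marker genes of their neuron classes. The summed level of 6 GABAergic genes ran from 1000 to 1780 CPM in the 3 BNST control libraries and from 505 to 548 CPM in the mPFC controls. The summed level of 8 cortical pyramidal genes ran from 120 to 178 CPM in the BNST controls and from 764 to 879 CPM in the mPFC controls. A list of 10 BNST peptide and steroid genes gave sums of 259 to 317 CPM and 248 to 270 CPM, close in both regions. Gene by gene the regions did differ. By the test described below, 5 of the 10 were called higher in the BNST controls (Pdyn, Cyp19a1, Nts, Tac2 and Cartpt) and 1 lower (Sst). Of all genes, 14.7% were called higher. The median log2 fold change of the list was 0.82, against 0.035 over all genes.

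2 BNST libraries stood apart. Control replicate 3 was low in most of the 10 genes. Relative to the mean of control replicates 1 and 2, its level was 0.00223 times for Shox2, 0.0137 times for Gbx2, 0.0687 times for Tcf7l2, 0.13 times for Slc17a6 and 0.262 times for Ntng1, and 2.17 times for Prkcd. The summed level of 12 further thalamus genes was 965 CPM in this library and 1160 and 1410 CPM in the other controls. That sum is not particular to the thalamus, at 490 to 551 CPM over the mPFC libraries. It therefore does not show how far thalamus genes fell. Control replicate 3 was the lowest of the 9 BNST libraries for 8 of the 10 genes and the third highest for Prkcd. For Pou4f1, which had no count in either, it was tied lowest with control replicate 1. CFA replicate 2 had a summed level of 17600 CPM for 8 choroid plexus genes, against 176 and 216 CPM in the other CFA libraries, 2890 to 8730 CPM after formalin and 34.5 to 731 CPM in the controls. Control replicates 1 and 2 also carry the tag L1 in the authors' column names, formalin replicate 1 the tag L3 and the other 15 libraries the tag L2. What the tag stands for is not given in the sources used here. The part of these differences in the results below was not tested, and results that rest on these libraries are given with and without them.

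**Figure D1:**
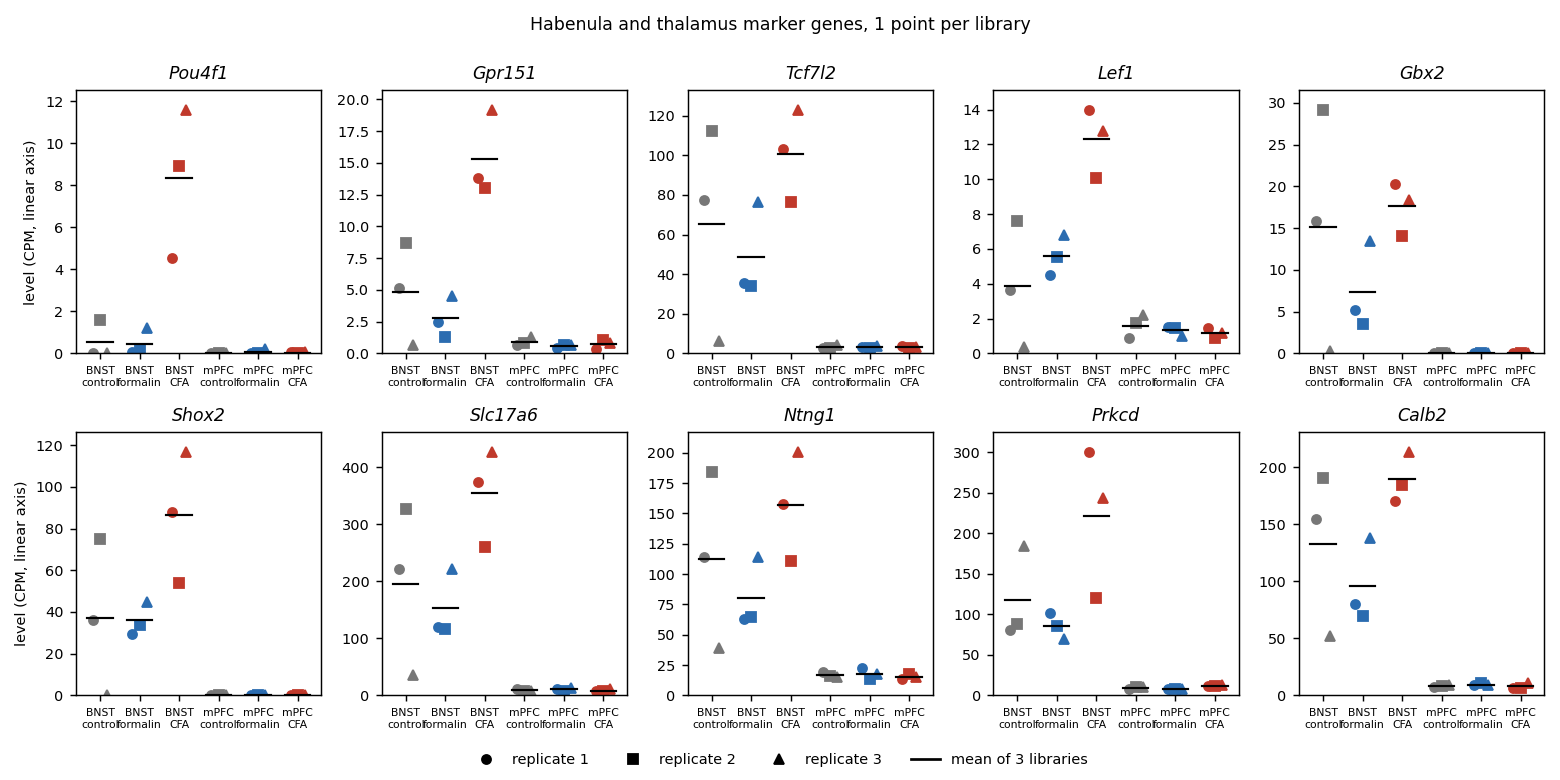
Level in CPM (vertical axis, linear) of each of the 10 genes in each of the 18 libraries, grouped on the horizontal axis by region and treatment. Points are libraries, their shape gives the replicate number and the black line is the mean of 3. For 7 of the 10 genes each BNST library lies above every mPFC library, although Shox2 in BNST control replicate 3 does so at only 0.124 CPM, and for Pou4f1, Gpr151 and Lef1 the regions overlap.

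The mPFC and the BNST were compared in control mice to see how far the 10 genes tell the regions apart. All 10 had a higher mean in the BNST, and 8 were called higher, at 14.7% of all 18994 genes tested called higher and 26.6% called in either direction. Here and throughout, a gene is called when its adjusted p in edgeR's quasi-likelihood test (Benjamini-Hochberg over all genes tested) is under 0.05 and its absolute log2 fold change is above 0.5. The groups did not overlap for 7 of the 10 genes, against 48.5% of all genes. With limma-voom the count of called genes was 4 (Slc17a6, Ntng1, Prkcd and Calb2, at 26.2% of all genes), and with DESeq2 it was 9 (at 26.6%). By the animal numbers in the authors' column names, control animals 2 and 4 gave libraries of both regions. With the animal number as a block 7 genes were called, at 20.2% of all genes: Tcf7l2 (3.13, adjusted p = 0.090) and Gpr151 (1.76, adjusted p = 0.25) were no longer called, and Pou4f1 was (adjusted p = 0.0021).

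Shox2 had no count in any mPFC control library, whereas the BNST controls had 36.3, 74.9 and 0.124 CPM. Its summed BNST level was at least 734-fold higher, taking a floor of 3 counts over the mPFC group. Gbx2 had a single count in the mPFC controls and 15.9, 29.2 and 0.31 CPM in the BNST controls, a ratio of 897 with an exact 95% counting interval of 161 to 35500. These ratios cover counting error only, and both genes fell to near the mPFC level in BNST control replicate 3.

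The synaptic genes showed the same order of regions. Slc17a6 had 221, 328 and 35.7 CPM in the BNST controls and 8.0 to 11.5 CPM in the mPFC controls, with no overlap (log2 fold change 4.39 ± 0.65 SE, adjusted p = 0.00014). Calb2 (4.01 ± 0.44, adjusted p = 9.1e-06), Tcf7l2 (4.25 ± 0.78, adjusted p = 0.00079), Prkcd (3.68 ± 0.38, adjusted p = 4.9e-06) and Ntng1 (2.74 ± 0.46, adjusted p = 0.0004) were also called without overlap. Gpr151 was called with overlap (2.39 ± 0.67, adjusted p = 0.011), and without BNST control replicate 2 it was not (1.65, adjusted p = 0.071).

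Pou4f1 and Lef1 were not called between the regions. Pou4f1 had 28 counts in BNST control replicate 2 (1.59 CPM) and none in the other 5 control libraries of either region, a ratio of at least 10.8 against a floor of 3 counts over the mPFC group (adjusted p = 0.085). Lef1 had 3.65, 7.60 and 0.371 CPM in the BNST controls and 0.893 to 2.18 CPM in the mPFC controls, which overlapped (log2 fold change 1.28 ± 0.61, adjusted p = 0.11). Without BNST control replicate 3, Lef1 was called as well, at 25.5% of all genes called.

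Per exon length, Calb2 had the highest mean level in the BNST controls, 309 TPM ± 161 (SD, n = 3). It was followed by Slc17a6 at 146 ± 109, Prkcd at 88.4 ± 47.0, Ntng1 at 55.4 ± 34.6, Shox2 at 45.0 ± 45.3, Tcf7l2 at 29.9 ± 24.4 and Gbx2 at 28.0 ± 26.6 TPM. Gpr151 at 11.0 ± 9.08, Lef1 at 1.77 ± 1.65 and Pou4f1 at 0.455 ± 0.787 TPM were the lowest. The mean ± SD of each neighbouring pair in this order overlapped. The genes share their libraries, so this overlap does not show whether neighbours differed within a library. Calb2 was above Slc17a6 in every BNST control (359, 440 and 129 TPM against 165, 244 and 28.5 TPM). Gpr151 was likewise above Lef1, and Lef1 above Pou4f1, in every control, whereas the other neighbouring pairs did not keep their order. After CFA the first 3 genes kept their places, with Calb2 at 405 ± 62.5 TPM, Slc17a6 at 246 ± 70.6 TPM and Prkcd at 150 ± 66.6 TPM. Pou4f1 at 6.67 ± 3.03 TPM then stood above Lef1 at 5.23 ± 1.04 TPM, a pair whose mean ± SD again overlapped. In the mPFC controls Calb2 was again highest, at 18.5 ± 2.04 TPM.

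The BNST after formalin was compared with the BNST after CFA to ask whether acute and persistent pain differed in these genes. All 10 had negative log2 fold changes, with lower mean levels after formalin. Pou4f1, Gpr151 and Prkcd were called lower, 3 of 10 at a background of 2.96% of all genes called lower and 6.87% called in either direction. The median log2 fold change of the 10 genes was −1.22, against −0.008 over all genes tested. The formalin and CFA libraries did not overlap for 8 of the 10 genes, and the same held for 32.1% of all genes. Tcf7l2 and Ntng1 overlapped by a narrow margin, since formalin replicate 3 lay just above CFA replicate 2.

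Pou4f1 (chr14:104461676-104467999, minus strand) showed the largest difference. It had 0.0589, 0.163 and 1.19 CPM after formalin and 4.53, 8.92 and 11.6 CPM after CFA. Every CFA library was above every formalin library, although the formalin values rested on 1, 3 and 28 counts. The log2 fold change was −4.01 ± 1.01 (adjusted p = 0.021, between 0.0047 and 0.15 over the alternatives tried). The call was lost without formalin replicate 1 (−3.55, adjusted p = 0.076), formalin replicate 2 (−3.63, adjusted p = 0.091) or CFA replicate 3 (−3.70, adjusted p = 0.058), and in DESeq2 (adjusted p = 0.15). Without formalin replicate 3 it was −6.13 (adjusted p = 0.015).

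Gpr151, a single-exon gene, had 2.47, 1.30 and 4.51 CPM after formalin and 13.8, 13.0 and 19.2 CPM after CFA, with no overlap. The log2 fold change was −2.45 ± 0.59 (adjusted p = 0.015, between 0.00023 and 0.11 over the alternatives). Without formalin replicate 1 it was −2.37 (adjusted p = 0.060) and without formalin replicate 2 −2.11 (adjusted p = 0.067), both no longer called.

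Prkcd (chr14:30595354-30626210, minus strand) had 102, 86.0 and 69.4 CPM after formalin and 301, 120 and 244 CPM after CFA. The groups did not overlap, and CFA replicate 2 lay much nearer to the formalin libraries than the other CFA libraries did. The log2 fold change was −1.37 ± 0.33 (adjusted p = 0.016, between 3.2e-06 and 0.12 over the alternatives). The call was lost without formalin replicate 2 (adjusted p = 0.059), formalin replicate 3 (adjusted p = 0.051) or CFA replicate 1 (−1.07, adjusted p = 0.076).

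The other 7 genes had log2 fold changes of −0.96 to −1.26 and were not called. Shox2 (chr3:66971727-66981771, minus strand) had 29.6, 33.7 and 44.7 CPM after formalin and 88.0, 54.1 and 117 CPM after CFA (−1.26 ± 1.01, adjusted p = 0.45). Slc17a6 (chr7:51622006-51671119, plus strand) had 120, 116 and 222 CPM after formalin and 375, 261 and 428 CPM after CFA (−1.21 ± 0.55, adjusted p = 0.15). Calb2 (chr8:110137502-110168210, minus strand) had 80.2, 69.8 and 138 CPM after formalin and 171, 185 and 214 CPM after CFA (−0.98 ± 0.37, adjusted p = 0.093). In each of these 3 genes the groups were apart, and formalin replicate 3 was the highest formalin library.

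Gbx2, Lef1 and Ntng1 gave differences of similar size and were not called either. Gbx2 had 5.19, 3.52 and 13.5 CPM after formalin and 20.3, 14.1 and 18.4 CPM after CFA, so the groups were apart (−1.23 ± 0.81, adjusted p = 0.34). Lef1 had 4.48, 5.53 and 6.80 CPM after formalin and 14.0, 10.1 and 12.8 CPM after CFA, also apart (−1.13 ± 0.53, adjusted p = 0.17). Ntng1 had 62.9, 64.7 and 114 CPM after formalin and 158, 111 and 201 CPM after CFA (−0.96 ± 0.43, adjusted p = 0.15). For Ntng1, as for Tcf7l2, formalin replicate 3 reached the level of CFA replicate 2.

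The standard errors of these 7 genes came from a spread estimated over all 18 libraries, to which BNST control replicate 3 contributed although it belongs to neither group. Without that library the log2 fold changes stayed as they were and all 10 genes were called lower, at 8.24% of all 19439 genes then tested called in either direction. Adjusted p then ran from 0.00057 for Gpr151 to 0.046 for Gbx2. Control replicate 3 stood apart in most of these same genes, so their spread was bound to shrink without it. The added calls are therefore not separate evidence. The same count of 10 was reached when CFA replicate 2 was left out as well, at 14.2% of all genes. Within the libraries tagged L2, which leave out formalin replicate 1, 4 genes were called (Pou4f1, Gpr151, Lef1 and Prkcd), at 5.45% of all genes. In the opposite direction, no gene was called without formalin replicate 2, where 4.22% of all genes were, and Prkcd alone was called without formalin replicate 1, where 4.15% of all genes were. With the spread taken from the 9 BNST libraries alone, none of the 10 was called, at 2.57% of all genes.

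**Figure D2:**
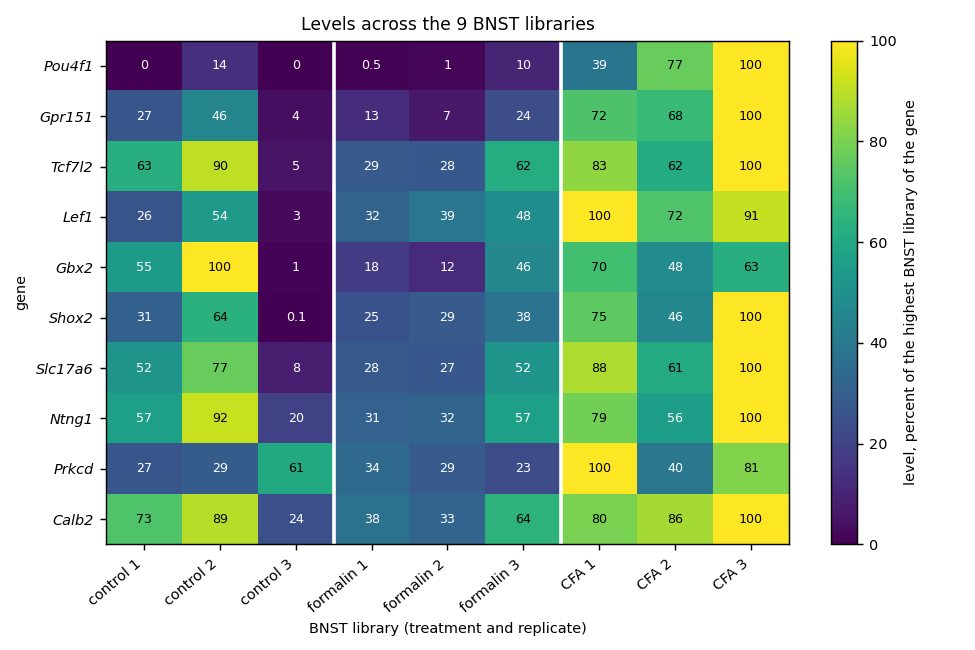
Level of each gene (rows) in each BNST library (columns, by treatment and replicate) as a percent of the highest of the 9 libraries. CFA replicate 3 is the highest library for 7 of the 10 genes, and control replicate 3 is the lowest for 8, at 0.1% for Shox2.

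The BNST after CFA was compared with control mice to ask which of the genes changed in persistent pain. All 10 had positive log2 fold changes, and Pou4f1 and Lef1 were called higher. This count of 2 in 10 stood beside 4.89% of all genes called higher and 11.9% called in either direction. With the spread taken from the 9 BNST libraries alone, neither was called (adjusted p = 0.076 for Pou4f1 and 0.16 for Lef1). In that fit 0 of the 10 genes were called, at 7.45% of all genes. The median log2 fold change of the 10 genes was 0.89, against 0.014 over all genes tested. The groups did not overlap for 3 of the 10 genes, Pou4f1, Gpr151 and Lef1, close to the 31.5% of all genes without overlap. This comparison shares its CFA libraries with the previous one, so the values of the 2 are given side by side and are not independent.

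Pou4f1 had no count in control replicates 1 and 3, 1.59 CPM in control replicate 2 and 4.53 to 11.6 CPM after CFA. Its groups did not overlap, and the log2 fold change was 3.92 ± 1.02 (adjusted p = 0.017, between 0.0021 and 0.14 over the alternatives). Without control replicate 3 it was 3.36 (adjusted p = 0.053), no longer called, and DESeq2 did not call it either (adjusted p = 0.14). Without control replicate 2 no control count was left, and the level after CFA was at least 92.2-fold higher, against a floor of 3 counts over the controls left (adjusted p = 0.0021, with a fitted log2 fold change of 10.25 that depends on the prior count).

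Lef1 (chr3:131110471-131224356, plus strand) had 3.65, 7.60 and 0.371 CPM in the controls and 14.0, 10.1 and 12.8 CPM after CFA. Every CFA library was above every control library, with a log2 fold change of 1.66 ± 0.55 (adjusted p = 0.043, between 1.6e-05 and 0.16 over the alternatives). The call was marginal: it was lost when any of 15 of the 18 libraries was left out, with an adjusted p of 0.10 at most. Without control replicate 3 the change was smaller but better resolved, 1.13 with an adjusted p of 0.023, and without control replicate 2 it was larger, 2.61 with an adjusted p of 0.005. An antisense gene, Gm43352, shares 13.746% of the exon bases of Lef1, and the strand setting of the counting was not stated.

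Gpr151 and Prkcd came closest to a call among the other genes. Gpr151 had 5.13, 8.73 and 0.681 CPM in the controls and did not overlap with the CFA libraries at 13.0 to 19.2 CPM (1.65 ± 0.57, adjusted p = 0.052). Gpr151 was called without control replicate 2 (2.40, adjusted p = 0.017) and by limma-voom (2.22, adjusted p = 0.012). Prkcd had 80.8, 88.3 and 184 CPM in the controls, so that control replicate 3 lay above CFA replicate 2 (0.92 ± 0.33, adjusted p = 0.060). Without control replicate 3, Prkcd was called at 1.39 (adjusted p = 0.0076), and without CFA replicate 2 at 1.22 (adjusted p = 0.012). DESeq2 called Prkcd on all libraries (0.92, adjusted p = 0.034). With control replicate 3 left out, Lef1 and Prkcd were the 2 genes called, at 8.47% of all genes tested.

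The thalamic homeobox genes showed no difference beyond the spread. Gbx2 (chr1:89927956-89931179, minus strand) had 15.9, 29.2 and 0.31 CPM in the controls and 20.3, 14.1 and 18.4 CPM after CFA, so control replicate 2 was the highest and control replicate 3 the lowest of all 9 BNST libraries (0.21 ± 0.79, adjusted p = 0.88). D130058E05Rik, on the opposite strand, shares 43.454% of the exon bases of Gbx2. Shox2 had 36.3, 74.9 and 0.124 CPM in the controls and overlapped with CFA (1.22 ± 1.01, adjusted p = 0.43), and Rsrc1 on the opposite strand shares 4.621% of its exon bases.

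The remaining 4 genes were not called either, and their groups overlapped. Tcf7l2 (chr19:55741820-55933654, plus strand) had 77.4, 112 and 6.50 CPM in the controls and 103, 76.2 and 123 CPM after CFA (0.63 ± 0.63, adjusted p = 0.51). Ntng1 (chr3:109780040-110144011, minus strand) had 114, 184 and 39.2 CPM in the controls and 158, 111 and 201 CPM after CFA (0.48 ± 0.42, adjusted p = 0.45). Slc17a6 gave 0.86 ± 0.54 (adjusted p = 0.27) and Calb2, at 155, 191 and 52.3 CPM in the controls, 0.51 ± 0.37 (adjusted p = 0.34). In all 4 genes the controls with the tag L1 lay within or near the CFA range, and the L2 control replicate 3 lay far below it. Within the libraries tagged L2, where that library is the only control, 9 of the 10 genes were called higher, all but Prkcd, at 15.3% of all genes called in either direction.

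**Figure D3:**
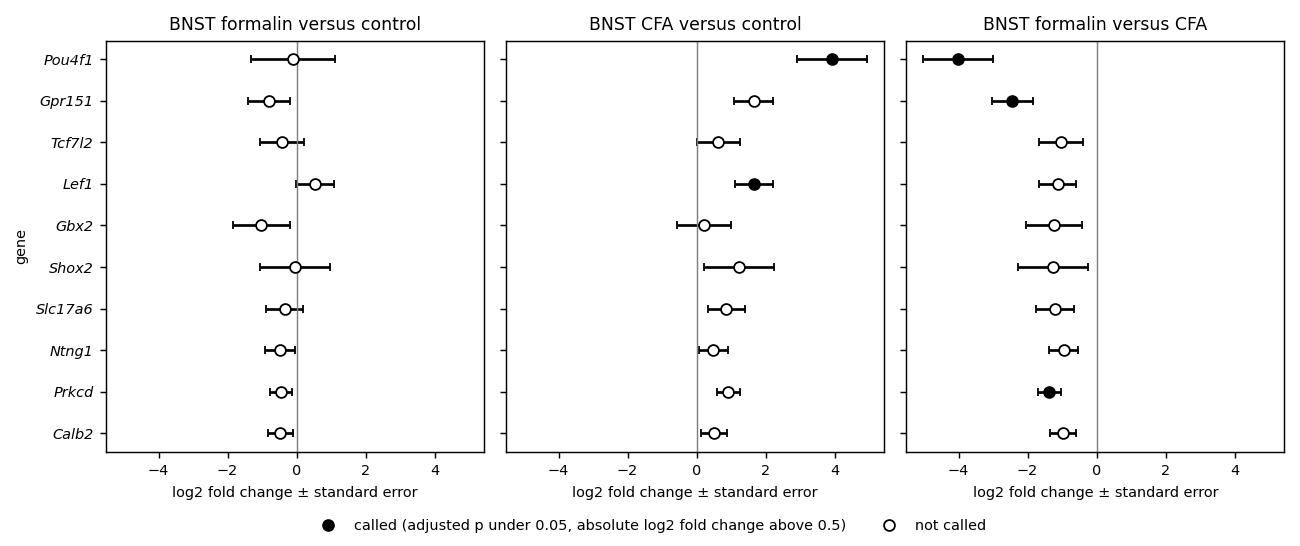
Log2 fold change (horizontal axis) with its standard error for each gene in the 3 BNST comparisons, with filled points for called genes. All 10 points lie below 0 in formalin versus CFA and above 0 in CFA versus control, and the points of formalin versus control run from −1.02 to 0.53.

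The BNST after formalin was compared with control mice to ask which genes changed in acute pain. None of the 10 was called by edgeR, DESeq2 or limma-voom, which called 0.3%, 2.15% and 0.321% of all genes. None had an unadjusted p under 0.05 in any of them, against 19.6% of all genes in edgeR. No gene had groups that did not overlap, against 22.4% of all genes. Log2 fold changes ran from −1.02 ± 0.82 for Gbx2 to 0.53 ± 0.56 for Lef1, with a median of −0.43 against −0.036 over all genes. The formalin libraries lay inside the wide control range for most genes. Tcf7l2, for example, had 35.6, 34.2 and 76.5 CPM after formalin, between control replicate 3 at 6.50 CPM and the other controls at 77.4 and 112 CPM. Without control replicate 3 and CFA replicate 2 together, Gpr151 and Gbx2 were called, at 7.03% of all genes.

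In the mPFC the 10 genes were low and were not called in any comparison of the main model. With all 18 libraries in the fit, this count of 0 held with edgeR, DESeq2 and limma-voom. No gene had an unadjusted p under 0.05 in any of them. In edgeR all genes were called at 0.269% for formalin against control, 0.632% for CFA against control and 0.932% for formalin against CFA. In the same order, 14.1%, 13.8% and 15.4% of all genes had an unadjusted p under 0.05 in edgeR. Slc17a6 ran from 7.34 to 12.7 CPM over the 9 mPFC libraries and Ntng1 from 13.7 to 22.6 CPM. Shox2 was not detected in any mPFC control or CFA library and had 3 counts over the formalin group. Pou4f1 had no count in the mPFC controls, 3 after formalin and 2 after CFA. Prkcd was the only gene whose groups were apart in 2 mPFC comparisons, with 11.0 to 13.1 CPM after CFA, 7.30 to 10.2 CPM in the controls (0.37 ± 0.39, adjusted p = 0.74) and 7.39 to 8.15 CPM after formalin (formalin versus CFA −0.62 ± 0.40, adjusted p = 0.51). This 1 gene in 10 stood beside 25.6% of all genes without overlap for CFA against control and 28.3% for formalin against CFA. With the spread taken from the 9 mPFC libraries alone, Prkcd was called in formalin versus CFA, where 3.15% of all genes were.

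Whether the regions differed in their change was tested as an interaction. No gene was called for the formalin change, where 0.158% of all genes were. None had an unadjusted p under 0.05 in edgeR, DESeq2 or limma-voom, against 14.6% of all genes in edgeR. For Pou4f1, Shox2 and Gbx2 neither interaction could be resolved, since the mPFC libraries had 0 to 3 counts of each. None was called for the CFA change, where 4.17% of all genes were called. Lef1 alone had an unadjusted p under 0.05 there in edgeR (region difference 2.11 ± 0.87, unadjusted p = 0.030, adjusted p = 0.20), with 2 genes in DESeq2 and 1 in limma-voom. Of all genes, 19.4% had an unadjusted p under 0.05 there in edgeR. Without BNST control replicate 2, Lef1 was called, at 4.08% of all genes.

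Other genes of both tissues were followed in the BNST after CFA. These lists and those below were chosen with earlier results of these data known, so their counts are a description. Beside them, 4.89% of all genes were called higher after CFA than in controls, and 2.96% lower after formalin than after CFA. Of 12 further habenula genes, 8 were called higher than in controls and none lower, with a median log2 fold change of 0.95. The largest changes were in the nicotinic receptor subunits of medial habenula neurons, Chrnb3 at 3.13 ± 0.83 (adjusted p = 0.015), Chrnb4 at 2.93 ± 0.56 (adjusted p = 0.0017) and Chrna3 at 2.09 ± 0.28 (adjusted p = 8e-05). Chrnb3 had no count in control replicates 1 and 3 and 1.93 CPM in control replicate 2, the pattern of Pou4f1. Against formalin, 7 of the 12 were higher after CFA. The summed level of the 12 genes was 159 to 181 CPM in the controls, 139 to 146 CPM after formalin and 243 to 339 CPM after CFA, and control replicate 3 was not far below the other controls. The sum is not particular to the habenula: it was 189 to 266 CPM over the mPFC libraries, where Etv1 (95.9 to 118 CPM in the controls) and Nwd2 (89.3 to 92.9 CPM) made up most of it. After CFA the BNST sum was higher than in controls, as were the means of the 10 marker genes. In control replicate 3 the sum was 159 CPM, against 177 and 181 CPM in the other controls. Since the mPFC gave a higher sum than these, it cannot show whether habenula genes fell in that library. The part of these 12 genes in the results was not tested.

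Of 12 further thalamus genes, 3 were called higher after CFA than in controls and none lower, with a median of 0.90. They were Rora (1.06 ± 0.31, adjusted p = 0.025), a nuclear receptor of relay neurons, Amotl1 (0.84 ± 0.19, adjusted p = 0.0058) and Adarb1 (0.78 ± 0.20, adjusted p = 0.013), an RNA-editing enzyme. Against formalin, 6 of the 12 were higher after CFA. The shares of all genes beside these counts were again 4.89% and 2.96%. The summed level was 965 to 1410 CPM in the controls, 974 to 1210 CPM after formalin and 1430 to 2200 CPM after CFA. Over the mPFC libraries it was 490 to 551 CPM, so this sum is not particular to the thalamus either.

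Markers of other neighbouring structures also moved with the treatment. Beside them, 4.89% of all genes were called higher after CFA than in controls and 11.9% in either direction. All 10 striatal genes were lower after CFA than in controls, with a median of −2.60 and Adora2a, an adenosine receptor of striatopallidal neurons, at −3.87 ± 0.46 (adjusted p = 0.0001). Their summed level was 1660 to 3910 CPM in the controls, 1420 to 1990 CPM after formalin and 328 to 755 CPM after CFA. Of 8 hypothalamic genes tested, 2 were higher after CFA, the neuropeptide genes Avp (2.48 ± 0.75, adjusted p = 0.030) and Trh (1.54 ± 0.34, adjusted p = 0.0044). The summed hypothalamic level was 34.4 to 62.8 CPM in the controls and 69.5 to 148 CPM after CFA. Of 8 choroid plexus genes, 1 was called higher, Folr1 (3.81 ± 1.26, adjusted p = 0.047). No list had a gene at 0 in all BNST libraries of a group. The part of these shifts in the values of the 10 genes was not tested.

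**Figure D4:**
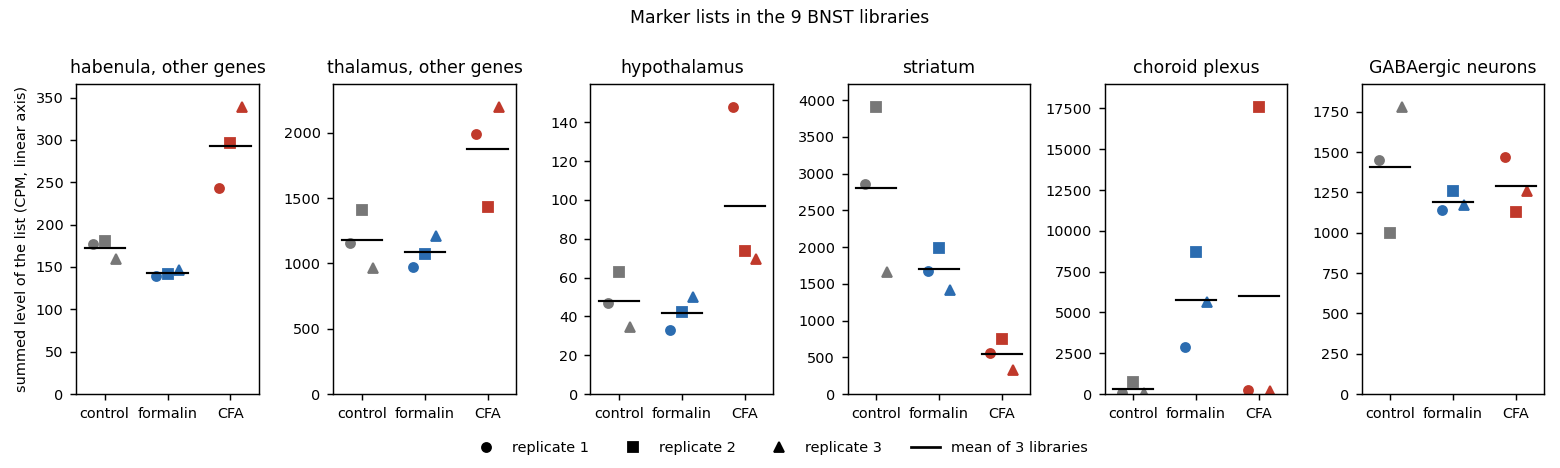
Summed level in CPM (vertical axes, linear, each with its own scale) of 6 marker lists in the 9 BNST libraries, by treatment. The 3 CFA libraries lie above the others for the habenula, thalamus and hypothalamus lists and below them for the striatum list. The margin is narrow for the thalamus list (1430 CPM in CFA replicate 2, 1410 CPM in control replicate 2). It is also narrow for the hypothalamus list (69.5 CPM in CFA replicate 3, 62.8 CPM in control replicate 2). CFA replicate 2 stands apart at 17600 CPM for the choroid plexus list.

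Relatives of the marker genes did not share one direction in the BNST after CFA. Of 9 TCF/LEF partners and Wnt target genes tested, Rnf43, a ubiquitin ligase that restrains Wnt receptors, was higher (0.81 ± 0.27, adjusted p = 0.042) and Tcf7 lower (−1.23 ± 0.22, adjusted p = 0.00094). Of 6 glutamate transporter and netrin-G partner genes, none was higher and 2 were lower, Slc17a8, which encodes VGLUT3 (−1.43 ± 0.22, adjusted p = 0.00024), and Lrrc4c, the netrin-G1 ligand (−0.65 ± 0.09, adjusted p = 8e-05). Of 5 other protein kinase C genes tested, Prkcq was higher (1.24 ± 0.32, adjusted p = 0.013) and Prkcb lower (−1.11 ± 0.11, adjusted p = 2.9e-06). Of 6 other calcium-binding protein genes, 2 were higher, Scgn (1.86 ± 0.46, adjusted p = 0.0079) and Pvalb (1.81 ± 0.58, adjusted p = 0.040), and 2 lower, with Hpca at −2.26 ± 0.40 (adjusted p = 0.0016).

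Cell types that share single markers with the 10 genes were checked as well. None of 6 genes of newly formed oligodendrocytes, which also express Tcf7l2, was called in any of the 3 BNST comparisons. The same held for 6 endothelial genes, which mark cells that also express Lef1. Of all genes, 0.3% were called for formalin versus control, 11.9% for CFA versus control and 6.87% for formalin versus CFA. A count of 0 in 6 is near these shares, and the part of these cells was not tested. The summed endothelial level was 74.6 to 111 CPM in the controls, 118 to 176 CPM after formalin and 78.0 to 270 CPM after CFA. Every formalin library was thus above every control library in this sum. Of 6 genes of VIP and calretinin interneurons, Npas1 (0.61 ± 0.19, adjusted p = 0.028) and Htr3a (0.60 ± 0.21, adjusted p = 0.047) were higher after CFA. Of 10 BNST peptide and steroid genes, Tac2 (1.66 ± 0.27, adjusted p = 0.00043) and Crh (0.73 ± 0.22, adjusted p = 0.023) were higher and Pdyn lower (−1.09 ± 0.24, adjusted p = 0.0047). Among 6 GABAergic genes Dlx5 was lower (−0.73 ± 0.22, adjusted p = 0.022), and among 8 cortical pyramidal genes Lamp5 was lower (−0.79 ± 0.13, adjusted p = 0.00051). None of the 5 ependymal genes tested was called.

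The genes whose level followed each marker most closely over the 9 BNST libraries were found by Pearson's r of log2 CPM among 12026 genes. The 9 points come from 3 treatments and include the control library that stood apart, so r is a description. Pou4f1 was closest to Chrnb3 (r = 0.984), Maged2 (0.982) and Bcl7c (0.975). Tcf7l2 and Gbx2 shared their 3 closest genes, Lhx9 (0.991 and 0.986), Grm2 (0.988 and 0.983) and C1ql3 (0.984 for each), of which Lhx9 is a LIM-homeodomain factor of the thalamus and Grm2 a metabotropic glutamate receptor. Shox2 was closest to Prox1 (0.991), Trpm6 (0.987) and Lhx9 (0.975).

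Slc17a6 was closest to Wnt3 (0.989), Tnnt1 (0.987) and Cbln1 (0.986), and Ntng1 to Stmn1 (0.991), Ano5 (0.987) and Egln2 (0.986). Gpr151 followed Ptdss1 (0.986), Atpif1 (0.985) and Slc25a4 (0.985), and Calb2 followed Gapdh (0.995), AI413582 (0.987) and Cadps2 (0.987). Lef1 followed Med29 (0.976), Vangl1 (0.972) and Rps27a (0.970). Prkcd had the lowest values, with Tagln3 (0.955), Gdpd1 (0.954) and Tmem28 (0.949), and it was also the only marker that was higher in control replicate 3 than in the other controls.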

How the data were processed

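Messenger RNA of the BNST and prelimbic mPFC was sequenced by the authors from polyA libraries. Per the methods and the submitters' processing notes, Trimmomatic 0.39 trimmed the reads, HISAT2 2.2.1 mapped them to GRCm38 and featureCounts 2.0.1 gave gene counts. The deposited table holds raw counts, whole numbers without normalization, for 55401 identifiers in 18 libraries. The annotation release and the strand setting are not given in the sources used here. Identifiers were matched without their version to GENCODE M21 (55141 matched, 1 of the 10 markers with another version), which gave symbols, positions and union exon lengths for TPM. Reads that overlap 2 genes, or an antisense gene, can be lost or assigned to the wrong one.

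The analysis used edgeR 4.0.16 (R 4.3.3). filterByExpr (minimum count 10, minimum total 15) kept 18994 genes with 99.88% of the counts. TMM factors and 1 robust quasi-likelihood model over 6 groups of 3 were used, with 12 residual degrees of freedom. Called genes had a Benjamini-Hochberg adjusted p under 0.05 over all genes tested with a log2 fold change beyond 0.5 in size. The SE was the log2 fold change over the square root of F. log2 CPM used a prior count of 2. On simulated data for BNST CFA versus control, with 18994 genes, edgeR recovered 81% of 100 genes given a log2 fold change of 1 in size and 98% of 100 given 2, and called 4 unchanged genes. The changed genes there had a mean above 1 CPM, and each gene had the same mean in all other groups of both regions. No simulated library was made to stand apart, so these shares need not hold for the 10 markers. Alternatives were DESeq2 1.42.0, limma-voom (limma 3.58.1), RLE factors, no filter, a stricter filter, the 9 libraries of a region, the libraries tagged L2, the replicate number and the animal number as blocks, no minimum fold change and 18 fits that each left out 1 library. A fit without both BNST control replicate 3 and CFA replicate 2 was added after seeing the data.

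The labels do not say that the libraries of a group came from separate mice, although the methods give 3 brains per group, and p-values measure only the spread between these libraries. No libraries were duplicates: chi-square per degree of freedom between replicates was 8.05 to 79.2 in the BNST and 3.80 to 10.8 in the mPFC. Residuals of libraries with the same replicate number in 1 region correlated at −0.193 to 0.308, above 0.1 in 4 of 18 pairs. Pairs with different numbers were not compared, so these values do not show whether the numbers link libraries. The main model treated replicate numbers as names only, and the replicate block is an alternative. Animal numbers, from the authors' column names, are shared by libraries of the 2 regions, which correlated at −0.0319 to 0.166, above 0.1 in 2 of 8 pairs. The markers and lists were chosen with earlier results of these data known. Named genes were the 10 markers, the up to 3 called genes of each list with the largest change in BNST CFA versus control, and for each marker the 3 most similar genes with a symbol and a mean of at least 5 CPM. Promoters came from RefSeq. The study's supplementary tables served only to read library tags and animal numbers, joined by equal counts, and their fold changes and p-values were not used.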

Additional observations from a re-analysis of the deposited data

How the results depend on the processing

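Leaving out 1 library at a time, the count of called genes among the 10 was 1 to 3 for BNST CFA versus control (8.47 to 14.1% of all genes), 0 to 10 for BNST formalin versus CFA (4.15 to 12.4%), 7 to 9 for BNST versus mPFC (23.3 to 27.8%), 0 to 1 for the region difference of the CFA change (2.56 to 4.61%), and 0 to 0 for the other 5 comparisons. With the 9 libraries of a region alone, 0 genes were called in BNST CFA versus control (7.45% of all genes) and 0 in BNST formalin versus CFA (2.57%), and 1, Prkcd, in mPFC formalin versus CFA (3.15%). The libraries tagged L2 leave BNST control replicate 3 as the only BNST control, assumed to vary like the other groups. With them 5 genes were called in BNST formalin versus control (1.9% of all genes), 9 in BNST CFA versus control (15.3%), 5 in BNST versus mPFC (22.5%), 2 for the region difference of the formalin change (1.80%) and 6 for that of the CFA change (8.04%). Log2 fold changes of BNST formalin versus control, none of them called in the main model, turned sign with these libraries for Pou4f1 (6.73), Gpr151 (2.13), Tcf7l2 (3.12), Gbx2 (4.79), Shox2 (8.25), Slc17a6 (2.27), Ntng1 (1.21) and Calb2 (1.02). In BNST versus mPFC they turned for Gpr151 (−0.44) and Lef1 (−2.09). In BNST formalin versus control limma-voom turned Pou4f1 (1.33), Tcf7l2 (0.24), Gbx2 (0.24), Shox2 (2.18) and Slc17a6 (0.09), and the replicate block turned Shox2 (0.14). Leaving out 1 library there gave −2.21 to 6.23 for Pou4f1, −0.95 to 0.22 for Tcf7l2, −0.63 to 0.99 for Shox2, −0.84 to 0.25 for Slc17a6, −0.89 to 0.07 for Ntng1 and −0.66 to 0.02 for Prkcd, and −0.36 to 1.11 for Gbx2 in BNST CFA versus control. Without BNST control replicate 3 and CFA replicate 2 together, counts were 2 in BNST formalin versus control (7.03% of all genes), 10 in BNST formalin versus CFA (14.2%) and 2 for the region difference of the CFA change (4.22%), with Prkcd at 0.04 in the first and Gbx2 at −0.21 in BNST CFA versus control, both turned in sign. No filter on low counts gave 1 in BNST CFA versus control (5.22%), and limma-voom gave 4 in BNST versus mPFC (26.2%). The replicate block gave 1 in BNST CFA versus control (11.5%), Pou4f1, with Lef1 at 1.75 and an adjusted p of 0.053, and changed no other count by over 1.5 times. The cause of these shifts was not tested, apart from the fewer libraries in some fits. Over the alternatives, 1019 values of single genes kept their direction and side of the threshold (a value of 0.00 counts as kept), 42 passed it only in the alternative, 45 only in the main model and 28 turned in sign. Depth limits Pou4f1 most, with 0 to 28 counts in the control and formalin libraries of the BNST.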
